A study of Mus musculus with 4 samples.

Results

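The genes described here encode the proteins of the cytosolic ribosome. They were taken from the GENCODE vM1 annotation of the mouse genome (build mm9) as protein-coding genes whose symbol is Rpl or Rps followed by a digit, or Rplp0, Rplp1, Rplp2 or Rpsa. Kinase genes of the Rps6k kind (10) and single-exon genes (55) were left out. The rule found 83 of 22367 protein-coding genes, 50 of the large subunit (Rpl symbols) and 33 of the small subunit (Rps symbols). Of these, 76 are the usual ribosomal proteins, and 7 are paralogs or genes with a like name: Rpl3l, Rpl7l1, Rpl22l1, Rpl36al, Rpl39l, Rps27l and Rps19bp1. The last of them encodes a protein that binds Rps19 and is not itself a ribosomal protein. No 2 members had overlapping promoter windows.

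The study mapped the histone demethylase Jarid1b (gene Kdm5b) and its substrate, trimethylated lysine 4 of histone H3 (H3K4me3), by ChIP-seq in E14TG2a.4 cells. This is a mouse embryonic stem cell line that needs no feeder cells and was grown on gelatin with LIF. One H3K4me3 library came from cells transduced by a lentivirus with an shRNA against Jarid1b (labelled LKO Jarid1b), and 1 from cells given a scramble control virus (labelled LKO Scr). Transduced cells were selected with puromycin, and how far Jarid1b fell is not stated in the labels. Both libraries used the same rabbit monoclonal antibody. Another 2 libraries, labelled as replicates, hold Jarid1b ChIP from E14 cells with an antibody named Jarid1b-DAIN. After keeping 1 read per position and strand, the Jarid1b shRNA library held 2635705 reads and the scramble library 5158330. The 2 Jarid1b libraries held 4336767 and 1602370.

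The ribosome joins a large subunit, where peptide bonds form and the new chain leaves through a tunnel, to a small subunit, where the mRNA is decoded. Its protein genes are expressed at high levels in growing cells, and their mRNAs typically begin with a C and a run of pyrimidines, the TOP motif, through which their translation follows nutrient and growth signals. H3K4me3 marks the first nucleosomes downstream of active start sites, and at strongly transcribed genes it extends further into the gene. Jarid1b removes methyl groups from this residue.

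Promoter sequences of 5 members show the elements that recur in the gene set. They run from 60 bases before the annotated start site to 20 bases from it on, 5′ to 3′ on the gene's strand, in build mm9. In the first 3, capitals mark the longest run of pyrimidines that begins with C within 10 bases of the start site. Rps12 has the second lowest H3K4me3 ratio of the small subunit genes, Rplp1 lies near the middle of the set, and Rps27 lies just above the threshold used below for a lower call. They are at chr10:23506996-23507075 (Rps12), chr9:61762326-61762405 (Rplp1) and chr3:90017554-90017633 (Rps27), all on the minus strand.
Rps12: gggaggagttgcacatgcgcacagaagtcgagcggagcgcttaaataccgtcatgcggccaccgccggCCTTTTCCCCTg
Rplp1: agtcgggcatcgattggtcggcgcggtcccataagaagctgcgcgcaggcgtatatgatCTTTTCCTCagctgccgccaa
Rps27: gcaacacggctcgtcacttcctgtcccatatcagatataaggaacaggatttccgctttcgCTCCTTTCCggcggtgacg

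In the next 2, capitals mark TCTCGCGAGA, which of all palindromes of 10 bases is the one found in most members. Rps28 has the lowest H3K4me3 ratio of the whole set and Rps6 is enriched for Jarid1b. The stretches lie at chr17:33961488-33961567 (Rps28) and chr4:86503297-86503376 (Rps6), both on the minus strand.
Rps28: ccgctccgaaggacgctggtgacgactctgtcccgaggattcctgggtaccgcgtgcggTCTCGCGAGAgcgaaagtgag
Rps6: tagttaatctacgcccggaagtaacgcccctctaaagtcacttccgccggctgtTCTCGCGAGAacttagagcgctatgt

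A C followed by at least 4 pyrimidines began at the annotated first base in 3 of 83 members (3.61%), against 2.11% of all promoters. A C followed by at least 6 pyrimidines, searched on the gene's strand within 20 bases on each side of the start site, was found in 33.7% of members and 18.9% of all promoters. A match to TCTCGCGAGA, searched from 250 bases before the start site to 50 after it, was found in 5 members (6.02%), against 0.604% of all promoters. This palindrome was picked as the one found in most members, so the choice itself favoured a higher share in members. The motif CCGGAAG, searched on both strands in the same stretch, was found in 28.9% of members, against 10.8% of all promoters and 35.5% of mitochondrial ribosomal protein genes. The TATA motif TATAAA was found in 10 of 83 members, against 13.4% of all promoters. These are counts of letter matches in a fixed window.

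Several facts of the libraries bear on all that follows. There was 1 H3K4me3 library per condition, so no difference between the conditions was tested against the spread between replicates. Intervals given are exact Clopper-Pearson intervals at 95% and cover counting error only. The Jarid1b libraries shared 16.8% of the plus-strand positions of the second, 9.52 times the share at other offsets, and their promoter counts differed by no more than counting noise (chi-square per degree of freedom 0.997, against 9.47 for the 2 H3K4me3 libraries). They were therefore counted as 1 sample. At Kdm5b itself, the gene the shRNA targets, the promoter held 155 H3K4me3 reads in the Jarid1b shRNA library and 153 in the scramble library, a log2 ratio of 0.99 (0.66 to 1.32). An shRNA acts on the mRNA, so this value does not check the knockdown.

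The labelled cell type was checked against marker genes. Of 11 stem cell marker promoters, 8 were enriched for H3K4me3 in the Jarid1b shRNA library and 9 in the scramble library. Of 12 fibroblast marker promoters, 4 were enriched in each, of 7 blood marker promoters 2 and 1, and of 6 neural marker promoters 4 and 3. Summed over each list, stem cell markers held 266 RPM (reads per 1000000 kept reads) in the Jarid1b shRNA library and 355 in the scramble library. Neural markers held 72.8 in the Jarid1b shRNA library and 27.9 in the scramble library, and fibroblast markers 47.4 and 20.5 in the same order. Blood markers held 7.59 RPM in the Jarid1b shRNA library and 7.17 in the scramble library. No neural marker promoter was at 0 reads in either library, while 2 fibroblast marker promoters were at 0 in each.

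H3K4me3 within 1000 bases of the start site was high on nearly all ribosomal protein genes in both libraries. It was enriched in 79 of 83 members in the Jarid1b shRNA library (59.9% of all promoters were) and in 78 of 83 in the scramble library (60% of all promoters). Enriched means an adjusted p under 0.05 in a Poisson test within the library whose expected count is the genome rate or the rate in the 10000 bases on each side, whichever is larger. Over all 83 members the median was 32.6 RPM in the Jarid1b shRNA library and 50.6 in the scramble library. All windows have the same length, so these levels can be set side by side.

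In the scramble library the genes ranked near the top of the promoters compared. The median member stood at percentile 70.1 of the promoters compared in the Jarid1b shRNA library and at percentile 96.7 in the scramble library. In the top 25% of the promoters compared there were 32 of 79 members in the Jarid1b shRNA library and 70 in the scramble library. High scramble levels among small subunit genes were at Rps12 (28.5 RPM in the Jarid1b shRNA library and 84.3 in the scramble library) and Rps21 (51.6 and 66.3). Among large subunit genes the highest were at Rpl7a (54.6 in the Jarid1b shRNA library and 80.1 in the scramble library), Rpl27a (50.5 and 74.4) and Rpl4 (32.2 and 69.4). Each of these 5 was lower in the Jarid1b shRNA library.

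**Figure D1:**
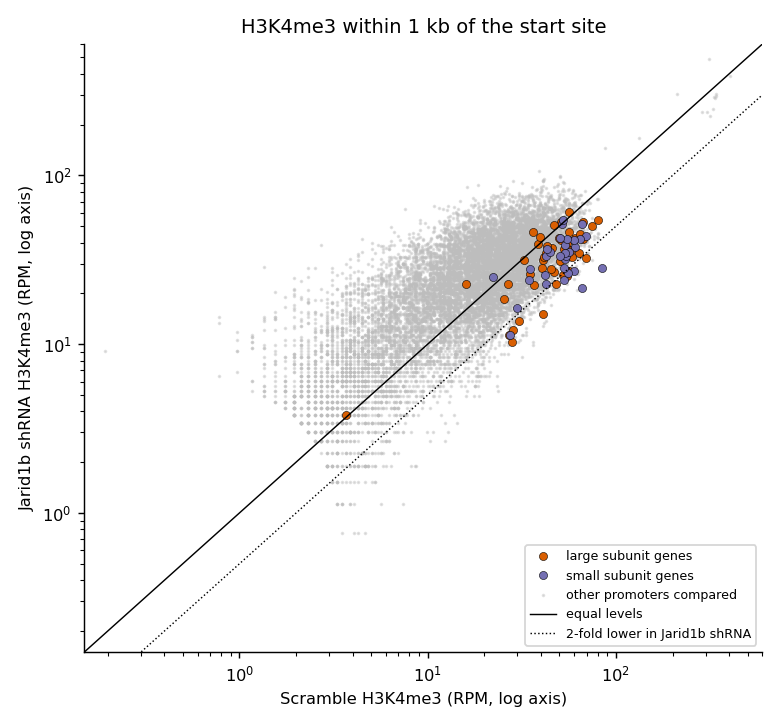
H3K4me3 RPM within 1000 bases of the start site in the Jarid1b shRNA library (y axis) against the scramble library (x axis), both on log axes, for the 79 ribosomal protein genes compared and for the other promoters compared. Most members lie at the right, between the line of equal levels and the line of a 2-fold lower level; 1 other promoter, at 0 reads in the Jarid1b shRNA library, falls off the axis.

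The ribosomal protein genes carried less H3K4me3 in the Jarid1b shRNA library than in the scramble library, while promoters at large carried more. The ratio was taken at promoters enriched in either library with 20 reads or more in all. Of 79 members compared, 69 had a log2 ratio of the Jarid1b shRNA over the scramble library below 0 (30.5% of all 13273 promoters compared did), and 78 were below the median of all promoters compared, 0.41. The median log2 ratio of members was −0.54. Summed over all 83 members, including those not compared, 6967 reads in the Jarid1b shRNA library stood against 19843 in the scramble library. After scaling to library size this was a log2 ratio of −0.54 (−0.58 to −0.50).

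A promoter was called lower or higher where its level differed at least 2-fold and the interval excluded 0. Of the 79 members, 16 were called lower (20.3%, against 2.37% of all promoters compared) and 0 were called higher, against 24% of all promoters compared. The interval of the log2 ratio lay below 0 in 53 members (11.2% of all promoters) and above 0 in 1, Rpl18 (43.7% of all promoters). An interval excludes 0 more easily with more reads. The median scramble level was 50.8 RPM in members compared and 17.8 in all promoters compared. A promoter-wide shift between the libraries is part of each ratio: scaling to the median promoter moves all log2 ratios by −0.41, and scaling to background bins moves them by 0.25. With these scalings 37 members (8.99% of all promoters) and 5 members (0.866% of all promoters) were called lower, and 78 of 79 members were below the median of all promoters under either.

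**Figure D2:**
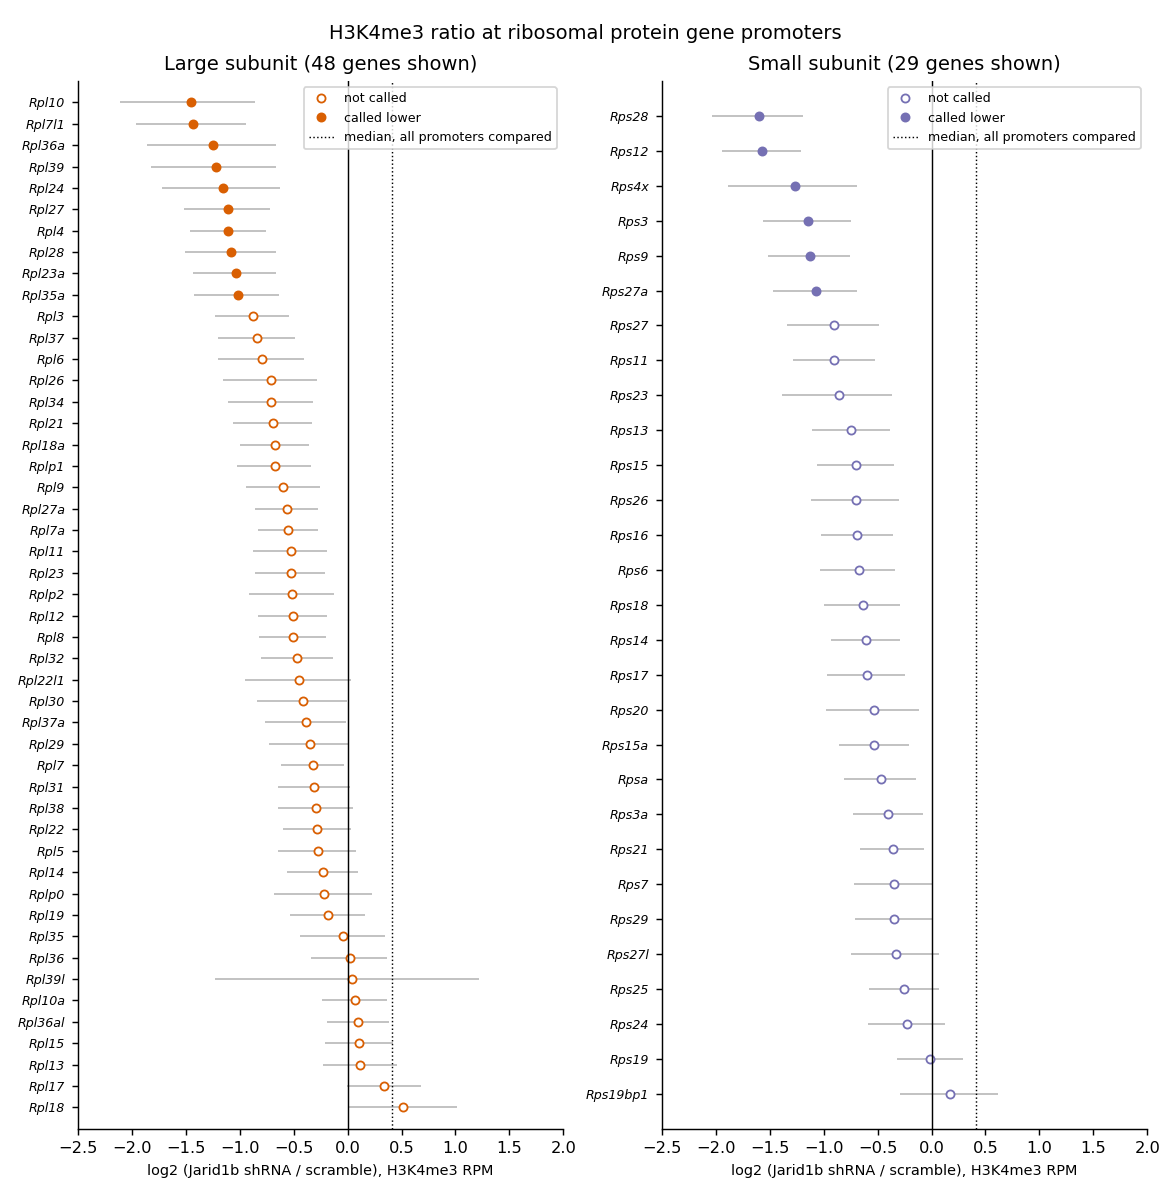
Log2 ratio of H3K4me3 RPM, Jarid1b shRNA over scramble, at the 48 large and 29 of the 31 small subunit genes compared, with exact 95% intervals for counting error as bars. Filled points are the 16 genes called lower; the dotted line is the median of all promoters compared, 0.41, and only Rpl18 lies to its right.

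Both subunits were lower in the Jarid1b shRNA library. The median log2 ratio was −0.51 over the 48 large subunit genes compared and −0.64 over the 31 small subunit genes, with SDs of 0.46 and 0.42 among genes. Of the large subunit genes 10 were called lower (20.8%) and of the small subunit genes 6 (19.4%). The ratios ran from −1.46 to 0.52 in the large and from −1.60 to 0.17 in the small subunit. The interval lay below 0 in 30 of 48 large and 23 of 31 small subunit genes. Summed over all genes, including those not compared, the log2 ratio was −0.49 (−0.54 to −0.44) over 50 large subunit genes. Over 33 small subunit genes it was −0.62 (−0.68 to −0.56). These intervals cover counting error only, and the difference between the subunits was not tested.

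Rps28, whose protein lies where the mRNA leaves the small subunit, had the lowest ratio of all members. It held 57 reads in the Jarid1b shRNA library (21.6 RPM) and 339 in the scramble library (65.7), a log2 ratio of −1.60 (−2.03 to −1.20). Rps12, a protein of the small subunit's beak, had 75 reads in the Jarid1b shRNA library and 435 in the scramble library, a log2 ratio of −1.57 (−1.94 to −1.21). These 2 were the only members that stayed called when the relation of the ratio to GC content was removed.

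The next lowest small subunit genes were Rps4x, Rps3 and Rps9. Rps3 and Rps9 both sit at the channel through which the mRNA enters. Rps3 held 63 reads in the Jarid1b shRNA library and 273 in the scramble library (log2 ratio −1.15, −1.57 to −0.75), and Rps9 held 72 and 308 in the same order (−1.13, −1.52 to −0.75). Rps27a, made as a fusion with ubiquitin, was the remaining small subunit gene called lower, with 70 reads in the Jarid1b shRNA library and 288 in the scramble library (−1.07, −1.47 to −0.69).

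In the large subunit the lowest ratio was at Rpl10, a late-joining protein near the peptidyl transferase centre. It held 27 reads in the Jarid1b shRNA library and 145 in the scramble library, a log2 ratio of −1.46 (−2.11 to −0.86). Rpl7l1, a paralog of Rpl7, followed with 40 reads in the Jarid1b shRNA library and 212 in the scramble library (−1.44, −1.96 to −0.94). Rpl24, which bridges the subunits, held 36 reads in the Jarid1b shRNA library and 157 in the scramble library (−1.16, −1.72 to −0.63). Rpl24 depends on the start site used: at the transcript start with most reads, 7608 bases away, its log2 ratio was 0.65. Rpl4, which lines the exit tunnel and was among the most highly marked genes, held 85 reads in the Jarid1b shRNA library and 358 in the scramble library (−1.11, −1.46 to −0.76). The other large subunit genes called lower were Rpl36a, Rpl39, Rpl27, Rpl28, Rpl23a and Rpl35a, with log2 ratios from −1.24 to −1.02.

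The highest ratios lay above 0 in the large subunit and on both sides of 0 in the small subunit. In the large subunit they were at Rpl18 (0.52, 0.01 to 1.02), Rpl17 (0.34), Rpl13 (0.12), Rpl15 (0.11) and Rpl36al (0.10), the last a paralog of Rpl36a. Rpl18 held 60 reads in the Jarid1b shRNA library and 82 in the scramble library, few for a ribosomal protein gene. At its transcript start with most reads, 3695 bases away, it held 119 in the Jarid1b shRNA library and 430 in the scramble library, a log2 ratio of −0.88. Among the highest in the small subunit were Rps19bp1 (0.17), Rps19 (−0.02), Rps24 (−0.23) and Rps25 (−0.25). None of these small subunit intervals excluded 0, so neither direction was detectable at this depth.

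The 4 members not compared were enriched for H3K4me3 in neither library by the test above. Rps10 held 5 reads in the Jarid1b shRNA library and 10 in the scramble library, Rps2 held 20 and 34, Rpl13a held 7 and 6, and Rpl3l, a paralog known from muscle, held 7 and 12. Except for Rpl3l, each had another annotated start site with far more reads. There Rpl13a held 156 reads in the Jarid1b shRNA library and 549 in the scramble library (log2 ratio −0.85), Rps10 held 155 and 422 (−0.48), and Rps2 held 107 and 279 (−0.41). Rpl39l held 10 reads in the Jarid1b shRNA library and 19 in the scramble library, the lowest level of any member compared. With Rps19bp1 (66 and 115 reads in the same order), these were the members with the lowest scramble H3K4me3 in their subunits.

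The lower level was unevenly spread along the genes, in stretches that were chosen after the data were seen. In the first 500 bases downstream of the start site, the 79 members together held 3378 reads in the Jarid1b shRNA library and 7066 in the scramble library, a log2 ratio of −0.10 (−0.16 to −0.04) that turned to 0.15 with background scaling and 0.067 with all deposited rows. From 500 to 2000 bases downstream they held 4388 in the Jarid1b shRNA library and 18005 in the scramble library, a log2 ratio of −1.07 (−1.12 to −1.02). The other promoters compared had log2 ratios of 0.58 and 0.15 in the same stretches. Other promoters in the highest of 5 equal classes by mean H3K4me3 had 0.59 and 0.02.

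The mean profile shows the same shape. Over members it peaked 175 bases downstream of the start site in the Jarid1b shRNA library, at 47.4 RPM per kb, and 625 bases downstream in the scramble library, at 52.9. Over the other promoters compared it peaked 175 bases downstream in both libraries, at 37.0 in the Jarid1b shRNA library and 23.5 in the scramble library. Upstream of the start site, members had a lower shoulder, 10.9 RPM per kb at its top in the Jarid1b shRNA library and 15.7 in the scramble library.

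**Figure D3:**
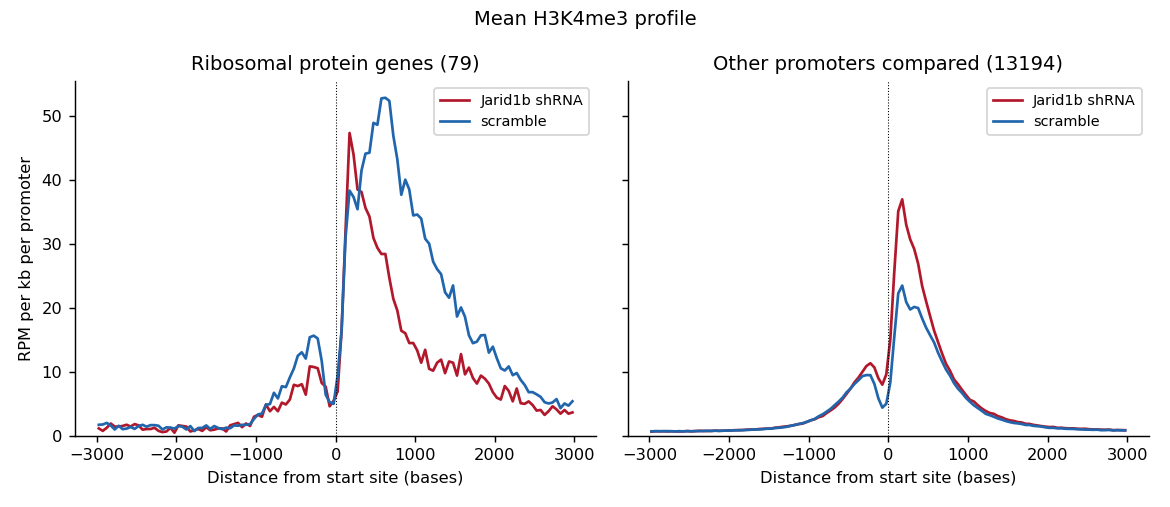
Mean H3K4me3 (RPM per kb per promoter) in bins of 50 bases around the start site, for the 79 ribosomal protein genes and the 13194 other promoters compared, in the Jarid1b shRNA and scramble libraries. On ribosomal protein genes the scramble curve is broad and peaks 625 bases downstream, while the Jarid1b shRNA curve peaks 175 bases downstream and is lower beyond it.

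Beyond 500 bases nearly every member was lower. The interval of the log2 ratio from 500 to 2000 bases lay below 0 in 73 of 79 members, against 10.1% of all promoters compared and 21.5% of those in the highest H3K4me3 class. It lay above 0 in 0. At least 2-fold lower with the interval below 0 were 51 of 79, against 5.72% of all promoters compared. Of the 59 members in that class, 37 were 2-fold lower there, against 9% of all promoters in it. These shares are not at equal depth, since an interval excludes 0 more easily with more reads. In this stretch members held 29.5 RPM per kb per promoter in the scramble library. Other promoters in the highest class held 11.1, and all other promoters compared held 5.19. By subunit, the summed log2 ratio was −1.01 (−1.07 to −0.95) over large and −1.16 (−1.24 to −1.08) over small subunit genes.

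Members differed in the first 500 bases, where the interval lay below 0 in 18 of 79 and above 0 in 10. Rps6, whose protein is phosphorylated by S6 kinases, and Rps3 had a ratio above 0 there and a low ratio beyond. Rps6 held 61 reads in the Jarid1b shRNA library and 82 in the scramble library in the first 500 bases, a log2 ratio of 0.54. From 500 to 2000 bases it held 33 in the Jarid1b shRNA library and 174 in the scramble library, a log2 ratio of −1.43. Rps3 had 37 and 72 reads in the first 500 bases, in the same order, a log2 ratio of 0.01, and 63 and 409 beyond, a log2 ratio of −1.73. Rps28 and Rps12 were low in both stretches, with log2 ratios of −1.42 and −1.14 in the first and −1.59 and −1.47 in the second.

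The contrast between the stretches is in part common to all promoters and depends on the start site. Of members with 20 reads or more in each stretch, 73 of 77 had a lower ratio beyond 500 bases than before it, as did 71.7% of the other promoters. With the transcript start that has most reads, 55 members' start sites moved, 25 of them by over 500 bases. The summed log2 ratio of members was then −0.41 in the first 500 bases and −1.03 from 500 to 2000 bases, against 0.53 and 0.08 in other promoters. So the lower level beyond 500 bases held with either start site, while the near equality before it did not.

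**Figure D4:**
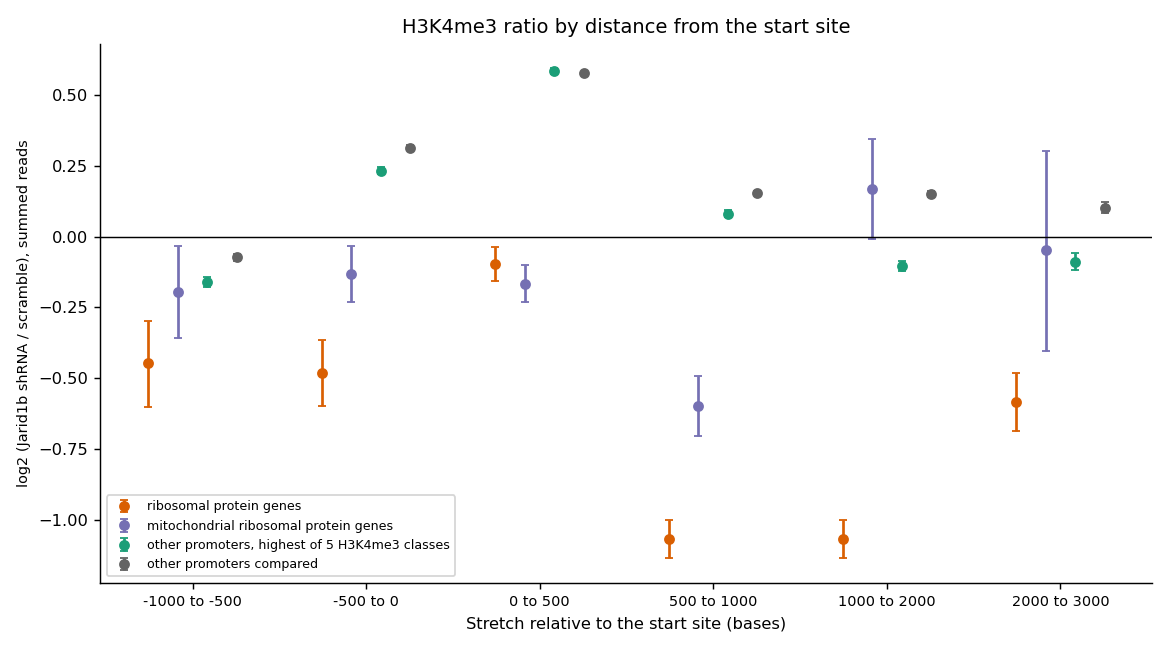
Log2 ratio of summed H3K4me3 reads, Jarid1b shRNA over scramble, by stretch relative to the start site, for ribosomal protein genes, mitochondrial ribosomal protein genes, other promoters in the highest of 5 classes by H3K4me3, and all other promoters compared; bars are 95% intervals for counting error. Ribosomal protein genes are at −1.07 from 500 to 1000 and from 1000 to 2000 bases, below the other sets.

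GC content moved with the ratio across all promoters and was not balanced between the stretches. In 5 equal classes of all promoters compared by GC content of the window, the median log2 ratio was −0.30 in the lowest class and 1.14 in the highest. Members lay in the lower 3 classes for the most part (23, 24 and 24 of 79), and 75 of 79 were below the median of their own class. In classes by mean H3K4me3, 77 of 79 were below it. In the first 500 bases downstream the mean GC content was 61.95% in members, with a log2 ratio of −0.10. In the other promoters compared it was 64.05%, with a log2 ratio of 0.58. From 500 to 2000 bases GC content was 47.3% in members and 48.4% in the other promoters compared, with log2 ratios of −1.07 and 0.15. The part of GC content in the contrast between the stretches was not tested. Ratios with the GC trend removed, given next, are for the window of 1000 bases on each side. With the GC trend removed, the median log2 ratio of members was −0.33 against 0.41 over all promoters, 76 of 79 members were below that median, and 2 were called lower (0.369% of all promoters).

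**Figure D5:**
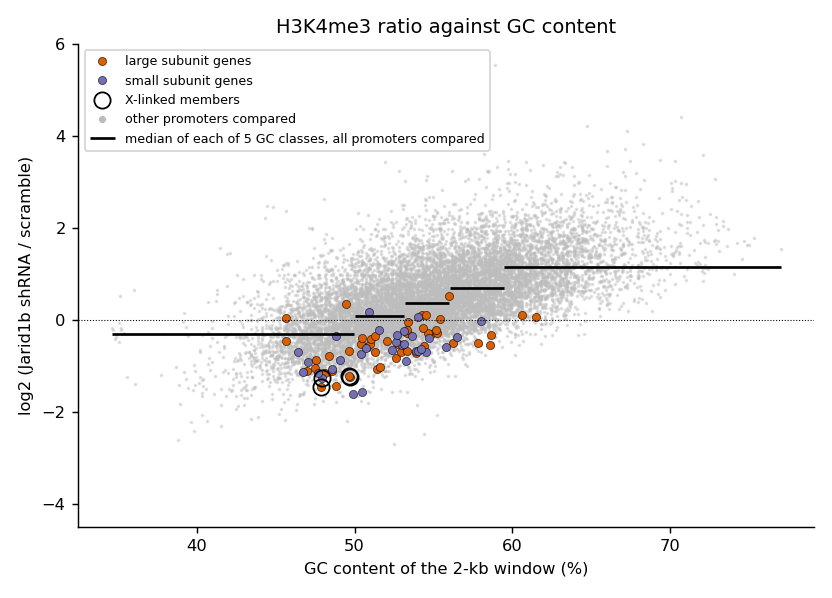
Log2 ratio of H3K4me3, Jarid1b shRNA over scramble, against the GC content of the window of 1000 bases on each side of the start site. Horizontal bars are medians of all promoters compared in 5 classes by GC content, which climb from −0.30 to 1.14; ribosomal protein genes lie mostly below the bar of their class, and circles mark the 4 X-linked genes.

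The 4 X-linked members were all called lower: Rps4x, Rpl10, Rpl36a and Rpl39. Rpl36a contacts the exit site for tRNA and Rpl39 lines the tunnel. They held 30, 27, 30 and 32 reads in the Jarid1b shRNA library and 141, 145, 139 and 146 in the scramble library, with log2 ratios from −1.46 to −1.22. Over all 394 X-linked promoters compared the median was −0.12 and 39 (9.90%) were called lower. X-linked reads were also fewer away from start sites, by a log2 ratio of −0.32 relative to autosomes, and the Y chromosome held 0.0391% of reads in the Jarid1b shRNA library and 0.145% in the scramble library. Their part in the X-linked values was not tested. Without these 4 genes, 12 of 75 members were called lower and the median was −0.53.

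By role in the ribosome, the groups were small and none had a member called higher. The stalk proteins Rplp0, Rplp1 and Rplp2, which recruit elongation factors, had log2 ratios of −0.22, −0.68 and −0.52, and 0 of 3 were called. Rpl5 and Rpl11, which carry the 5S rRNA and bind the p53 regulator Mdm2, had −0.28 and −0.53. Of 6 proteins at the tunnel exit, 1 was called lower, Rpl23a, a contact of the signal recognition particle (median −0.24). Among 3 compared at the decoding site and mRNA path, 1 was called lower, Rps3 (median −0.86). Of 14 compared whose human counterparts are mutated in Diamond-Blackfan anaemia, an inherited red cell failure, 3 were called lower, Rps28, Rpl27 and Rpl35a (median −0.56). Over all members the share was 20.3% and the median −0.54.

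Some members host small nucleolar RNAs, guides for rRNA modification. In the annotation 30 members held 58 such RNAs, and the 28 compared had a median log2 ratio of −0.62, against −0.51 in the 51 without one. The interval lay below 0 in 24 of the 28 hosts and in 29 of the 51 others, and the difference was not tested. The 9 members with a divergent coding neighbour within 1000 bases had a median of −0.75 over the 8 compared, against −0.53 over the other 71. Ribosomal protein genes have many processed copies, and reads that match several places may be lost or misplaced. Repeated 32-mers made up 0 to 30.8% of a member's window (median 6.95%), and 33 members were over 10%. Without those 33, 10 members were called lower and the median was −0.60.

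Genes of the same pathway outside the rule also lay mostly below the median of all promoters compared, and some were called higher. Over all promoters compared, 2.37% were called lower and 24% higher. Ribosomal protein genes with other symbols had log2 ratios of −0.87 at Gnb2l1 (the scaffold protein Rack1) and −0.75 at Fau (fused to Rps30). Of 75 mitochondrial ribosomal protein genes compared, 6 were called lower (8%) and 2 higher (2.67%), with a median of −0.32. Below the median of all promoters were 67 of the 75. Of 47 ribosome assembly and RNA polymerase I genes, 3 were called lower (6.38%) and 1 higher (2.13%), with a median of −0.31. Of these 47, 44 were below the median of all promoters. The lowest were Nop58 (−1.27) and Nop10 (−1.10), both of small nucleolar RNA particles, and the highest were Rrp12 (0.47) and Ubtf (1.01), the polymerase I factor. Of 15 translation factors and other genes whose mRNAs carry the TOP motif, 1 was called lower (6.67%), Eef1g (−1.12). In this list 14 were below the median of all promoters. Hnrnpa1 was at −0.95, Tpt1 at 0.39 and Pabpc1, the poly(A)-binding protein, at 0.95.

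Stem cell markers moved in the same direction in part, and neural markers in the other. Of 9 stem cell marker promoters compared, 4 were called lower, Zfp42 (−1.43), Nanog (−1.23), Tdgf1 (−1.17) and Dppa5a (−1.11), with Sox2 at 0.23 and Klf4 at 0.69 the highest. Of 4 neural marker promoters compared, 3 were called higher, Nes (1.30), Olig2 (2.19) and Neurog2 (2.35), and Tubb3 was at 0.74. Fibroblast markers Cdh11 (1.04) and Twist2 (1.28) were called higher, and Thy1 was at 0.97, of 3 compared. Their part in the ribosomal protein gene values was not tested, and with 1 library per condition a change within cells and a change in the mix of cells cannot be told apart.

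The share of ribosomal protein genes enriched for Jarid1b was near that of all promoters. In both Jarid1b libraries, by the same Poisson test, 5 of 83 members were enriched (6.02%), against 7.98% of all promoters. They were Rps29, Rps3a, Rps6 and Rps27l of the small subunit and Rpl36al of the large. The median enrichment of members over the genome rate was 2.95-fold and 2.40-fold in the 2 libraries, against 2.36-fold and 2.40-fold for all promoters. Members were lower than promoters with H3K4me3 in the first 500 bases downstream. Summed there, members compared stood at 4.18-fold and 3.76-fold, and other promoters compared at 5.27-fold and 6.03-fold. Other promoters in the highest of 5 classes by H3K4me3 stood at 7.45-fold and 9.94-fold.

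Rps29, a small zinc-binding protein, held 18 reads in the first Jarid1b library, 5.31-fold over the genome rate (3.15 to 8.39), and 13 in the second, 10.4-fold (5.53 to 17.7). In its window 51.6% of the Jarid1b reads fell within 200 bases and 21.1% of 32-mers were repeated. Rpl36al held 24 reads, 7.08-fold (4.54 to 10.5), and 7 reads, 5.59-fold (2.25 to 11.5). Its window also holds the start site of a divergent coding neighbour, so these reads do not separate the promoters of the pair. Rps3a, Rps6 and Rps27l held 16, 12 and 11 reads in the first library and 7, 6 and 7 in the second. These counts are low, and at this depth a weak Jarid1b signal at other members was not detectable.

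At the 5 enriched genes the log2 ratios of H3K4me3 were −0.68 at Rps6, −0.40 at Rps3a, −0.34 at Rps29, −0.33 at Rps27l and 0.10 at Rpl36al. The median of all members compared was −0.54. None of the 5 was called lower or higher. Among all members compared 20.3% were called lower, and among all promoters compared 2.37%. With so few genes, a relation between Jarid1b enrichment and the H3K4me3 ratio was not tested. The Jarid1b call rests on the library and background used. The deeper library alone gave 20 members (24.1%, against 26.8% of all promoters) and the other alone gave 7 (8.43%, against 10.7%). Against background bins of the same GC content, Rps29 alone remained.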

How the data were processed

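Aligned reads of 4 ChIP-seq libraries were used, as deposited by the authors: 1 row per read, with start, end and strand and no other unit or score used. Per the labels' protocols, reads were mapped to mm9 with Bowtie (version: not given in the sources used here). In addition they state 1 match per position, MACS peaks and IgG normalization; the deposited rows still repeat positions, and no IgG library was used here. Repeats made up 7.56% of rows in the Jarid1b shRNA library, 31.5% in the scramble library, and 15.3% and 7.69% in the Jarid1b libraries, and were reduced to 1 read per position and strand. Read 5′ ends were shifted by 75 bases and counted within 1000 bases of the gene-level start site of GENCODE vM1, whose outermost transcript sets it. Sequences come from the NCBIM37 genome (mm9). Read lengths were 34, 35 or 26 bases.

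Levels are RPM, reads per 1000000 kept reads. Enrichment used a one-sided Poisson test with Benjamini-Hochberg adjustment over 22367 promoters. With 1 library per condition, ratios carry Clopper-Pearson intervals and no test. Scripts used Python 3.11.15 with numpy 2.4.6, scipy 1.17.1 and pandas 2.3.3, and were tested on simulated counts. The genes and lists were chosen with earlier results of these data known. Named genes are Kdm5b, Jarid1b-enriched members, the 5 lowest and 5 highest ratios and 3 highest and 3 lowest scramble levels per subunit, members not compared, and the 2 lowest and 2 highest of other lists; any further gene was named after its values were seen. Alternatives changed the scaling, filters, window, start site, repeats and membership. Some items are not reported here.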

Additional observations from a re-analysis of the deposited data

How the results depend on the processing

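No paired analysis was possible because each H3K4me3 condition has 1 library and the result of a comparison between them comes from no test. The direction of the members' median held in every setting run. Members called lower were 37 with scaling to the median promoter or at 1.5-fold (8.99% and 7.95% of all promoters), 5 with scaling to background bins, 2 with the GC trend removed, 7 in a window of 500 bases (2.67% of all promoters; there Rpl17 was the 1 member called higher) and 10 without members over 10% repeated 32-mers. The cause of the changes was not tested. The median of members was −0.95 (median scaling), −0.29 (background scaling), −0.33 (GC trend removed), −0.14 (500 bases), −0.72 (2000 bases) and −0.69 (upstream side only). For large subunit genes it was −0.92, −0.26, −0.29 and −0.15 in the first 4 of these settings, and for small subunit genes −1.05, −0.39, −0.34 and −0.14. Over all promoters, higher calls were 91% of calls as reported, 57.2% with median scaling, 97.5% with background scaling and 98.0% with the GC trend removed.

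The stretches of the first 500 bases and of 500 to 2000 bases were both chosen after seeing the data. In the first 500 bases the log2 ratio was −0.51 with median scaling, 0.15 with background scaling, 0.067 with all deposited rows and −0.41 with the start site of most reads. From 500 to 2000 bases it was −1.48, −0.82 and −1.18 in the first 3 of these and −1.14 without members over 10% repeated 32-mers. Jarid1b enriched members were 3 on the upstream side alone (0.876% of all promoters), 3 without paralogs, 1 at an adjusted p of 0.001 (1.39%), 22 against the genome rate only (24.7% of all promoters) and 1 against bins of the same GC content (0.675%). Leaving out a Jarid1b library gave 7 to 20. Of the 16 genes called lower, 218 values under alternatives kept the call in 175, lost it in 42 and turned in 1, Rpl24 at 0.65 with the start site of most reads.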
